A study of Mus musculus with 12 samples.

Results

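Fc gamma receptors were described in mouse brain after intracerebral hemorrhage (ICH) through 5 genes, *Fcgr1*, *Fcgr2b*, *Fcgr3*, *Fcgr4* and *Fcer1g*, out of the 54833 genes in the count table. They were taken by gene symbol, and all 5 passed the filter on low counts together with 21495 genes in all. The family was picked because earlier results of these data placed *Fcgr3* among the clear rises after ICH in aged mice. Values for aged ICH vs. aged sham, and for the difference between the aged and the young response, are therefore given below as a description with no test.

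The samples were the ipsilateral caudate putamen around the hematoma of wild-type male C57BL/6 mice, 3 samples in each of 4 groups, and each sample pooled several mice. Young mice, sham or ICH, were 8 to 10 weeks old, and aged mice, sham or ICH, were 20 to 22 months old. ICH was made by injecting bacterial collagenase, which opens vessel walls, into the striatum, and sham mice received saline through the same route. All mice were perfused with buffer before the tissue was taken at 24 h.

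Fc gamma receptors bind the constant part of immunoglobulin G and let phagocytes recognize antibody-coated particles and immune complexes. The activating receptors encoded by *Fcgr1*, *Fcgr3* and *Fcgr4* pair with the common gamma chain encoded by *Fcer1g*, whose ITAM motif is phosphorylated by Src family kinases and then recruits Syk. The receptor encoded by *Fcgr2b* carries an inhibitory ITIM motif that recruits the lipid phosphatase SHIP-1, encoded by *Inpp5d*. In the brain these receptors are known from microglia and border macrophages, and in blood from monocytes, neutrophils and, for *Fcgr2b*, B cells.

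Total counts ranged from 28410896 to 37785160 per sample. Aged sham replicate 2 had the lowest level of its group, and young ICH replicate 3 the highest of its group, for all 5 genes. Several fitted changes are therefore given with and without these libraries, while levels, ratios and shares use all samples. Summed CPM of 6 choroid plexus markers was 3967 in young ICH replicate 3, 1521 and 1920 in aged ICH replicates 1 and 2, and 8.55 to 465 in the other 9 samples. CPM here means counts divided by the TMM-scaled depth of the library. Summed CPM of 9 striatal neuron markers was 325 to 3024, so the labelled tissue was present in each sample, with 325 to 1912 in ICH and 1513 to 3024 in sham samples.

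Because the study compared tissue after ICH with sham tissue at each age, the levels of each gene come first, starting with the activating receptors. *Fcgr1*, the high-affinity receptor for immunoglobulin G, lies on chr3:96282909-96293969 of GRCm38, on the minus strand. Its levels were 10.4, 10.4 and 13.1 CPM in young sham and 18.5, 16.6 and 22.8 CPM in young ICH. In aged mice they were 15.3, 7.28 and 13.7 CPM in sham and 31.0, 23.3 and 25.7 CPM in ICH samples. Every ICH sample was above every sham sample of both ages, and every aged ICH sample was above every young ICH sample.

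*Fcgr3*, a low-affinity activating receptor (chr1:171051174-171064935, minus strand), had 22.5, 23.0 and 24.0 CPM in young sham and 40.3, 38.4 and 44.8 CPM in young ICH. In aged sham it had 26.05, 21.0 and 26.1 CPM, and in aged ICH 50.6, 46.5 and 51.7 CPM. The replicates lay closest together for this gene, and the aged ICH samples were again above the young ICH samples.

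*Fcgr4*, an activating receptor of intermediate affinity (chr1:171018920-171029761, plus strand), had the fewest reads of the 5. It had 2.49, 1.87 and 3.40 CPM in young sham, 4.50, 5.46 and 8.38 CPM in young ICH, 4.17, 1.11 and 4.88 CPM in aged sham, and 7.89, 7.21 and 5.81 CPM in aged ICH. ICH and sham samples did not overlap at either age, whereas young ICH and aged ICH overlapped. The 1.11 CPM of aged sham replicate 2 rest on 33 reads.

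*Fcgr2b*, the inhibitory receptor (chr1:170958617-170976547, minus strand), had 16.0, 15.2 and 17.1 CPM in young sham and 40.2, 31.8 and 53.5 CPM in young ICH. In aged sham it had 24.3, 14.03 and 26.7 CPM, and in aged ICH 58.1, 46.1 and 51.8 CPM. ICH samples were above sham samples at both ages, and the young ICH samples were spread widely.

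*Fcer1g*, the shared signalling chain (chr1:171229572-171234365, minus strand), had 12.9, 10.9 and 14.3 CPM in young sham, 20.4, 16.1 and 22.2 CPM in young ICH, 15.9, 9.98 and 16.2 CPM in aged sham, and 26.9, 23.8 and 23.0 CPM in aged ICH. The aged ICH samples lay above all young ICH samples, by a margin that was small next to the rise after ICH.

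**Figure D1:**
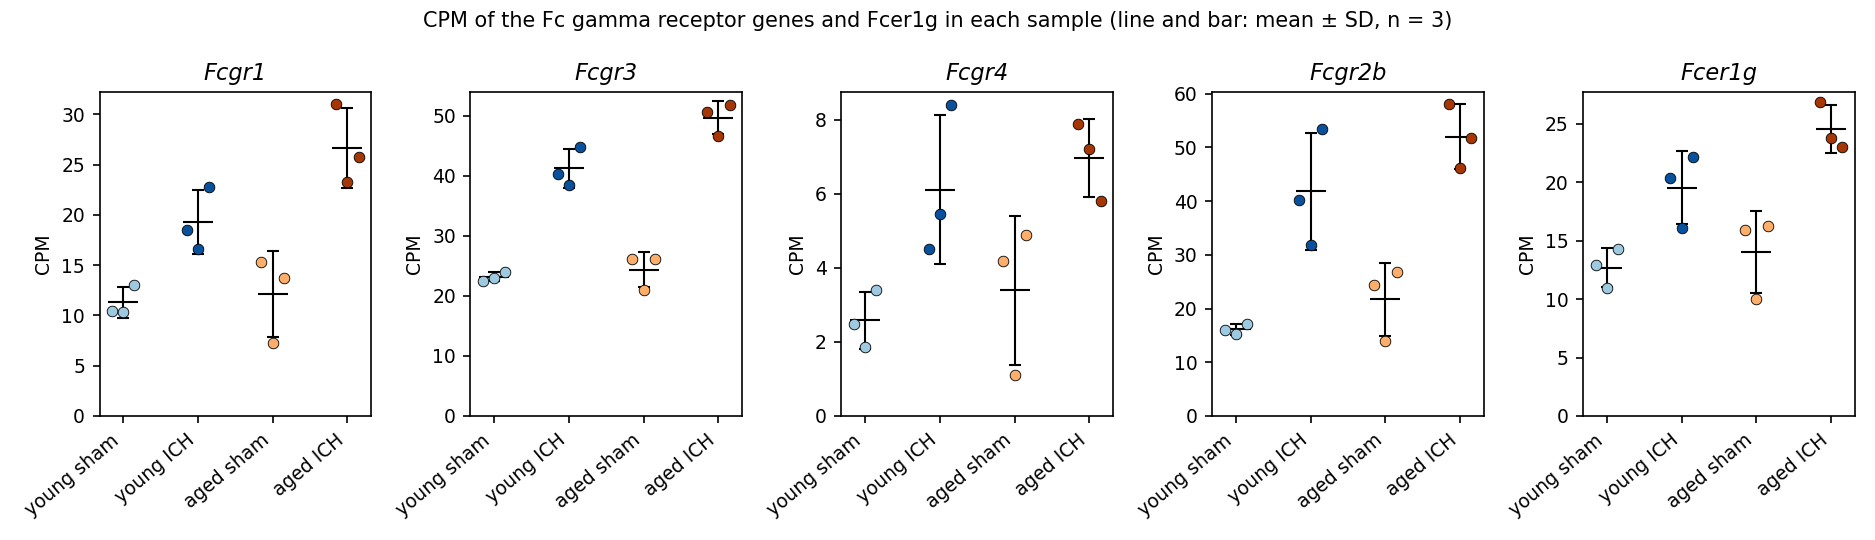
CPM of the 5 genes (y axes, each from 0) in each of the 4 groups (x axes); points are the 3 samples of a group, the line and bar the mean ± SD. ICH samples sit above the sham samples of the same age in all 5 panels, and aged sham replicate 2 is the lowest aged sham point in each.

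In young ICH vs. young sham, a comparison that the choice of the family did not rest on although its results were known, all 5 were upregulated DEGs. A DEG had FC > 1.5 or FC < 0.67 and an unadjusted *P* < 0.05. Of all genes tested, 8.66% were upregulated DEGs in this comparison. *Fcgr2b* had the largest rise, with log2FC 1.38 ± 0.23 (SE), a FC of 2.59 with 95% confidence interval 1.84 to 3.66, and an adjusted *P* of 0.00304 (edgeR quasi-likelihood test, Benjamini-Hochberg adjustment over all genes tested, n = 3 per group). *Fcgr3* rose by 0.83 ± 0.09 (FC 1.78, interval 1.55 to 2.04, adjusted *P* = 0.00093 in edgeR), the smallest *P* of the 5. *Fcgr1* rose by 0.77 ± 0.23 (FC 1.71, interval 1.20 to 2.43, adjusted *P* = 0.0384 in edgeR) and *Fcer1g* by 0.62 ± 0.18 (FC 1.54, interval 1.17 to 2.02, adjusted *P* = 0.0334 in edgeR). *Fcgr4* rose by 1.24 ± 0.43 (FC 2.36, interval 1.24 to 4.52), with an unadjusted *P* of 0.0137 but an adjusted *P* of 0.0633 in edgeR. The other 4 were below an adjusted *P* of 0.05, as were 9.89% of all genes tested in this direction. The groups did not overlap for any of the 5, where 18.5% of all genes tested had every young ICH sample above every young sham sample. In this bulk tissue, more cells that carry a receptor and more RNA per cell cannot be told apart.

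Without young ICH replicate 3, the sample with the most choroid plexus marker reads, 3 of the 5 remained DEGs. *Fcgr4* then had log2FC 0.95 and missed the *P* criterion (adjusted *P* = 0.198 in edgeR), and *Fcer1g* had 0.52, under the FC criterion (adjusted *P* = 0.11 in edgeR). Without young sham replicate 2 the same 2 genes lost the call, at 1.06 (adjusted *P* = 0.204) for *Fcgr4* and 0.53 (adjusted *P* = 0.131) for *Fcer1g* in edgeR. With each sample left out in turn, *Fcgr2b* ranged between 1.16 and 1.54, *Fcgr3* between 0.77 and 0.88, and *Fcgr1* between 0.64 and 0.89. The adjusted *P* of *Fcgr1* in edgeR ranged from 0.00644 to 0.13 over these fits and was above 0.05 in 6 of 12, and that of *Fcer1g* ranged from 0.00954 to 0.131 and was above 0.05 in 4 of 12.

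In aged ICH vs. aged sham, the comparison by which the family was picked, fitted log2FC was 1.26 ± 0.22 (SE) for *Fcgr2b*, 1.14 ± 0.23 for *Fcgr1*, 1.04 ± 0.42 for *Fcgr4*, 1.03 ± 0.09 for *Fcgr3* and 0.81 ± 0.18 for *Fcer1g*. The groups did not overlap for the 5 genes, a pattern with the aged ICH samples above that 17.8% of all genes tested had. Without aged sham replicate 2, these values were 1.02, 0.88, 0.62, 0.93 and 0.61 in the same order, the lowest that leaving out any 1 sample gave. Of the 6 choroid plexus markers 3 were upregulated DEGs in this comparison. Aged ICH replicate 3, which held fewer reads of them than any aged sham sample (38.2 to 75.6 CPM), was above every aged sham sample for all 5 genes. The part of these markers in the result was not tested.

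The difference between the aged and the young response was 0.36 ± 0.33 (SE, log2 scale) for *Fcgr1*, 0.20 ± 0.13 for *Fcgr3* and 0.18 ± 0.25 for *Fcer1g*, and it was -0.12 ± 0.31 for *Fcgr2b* and -0.21 ± 0.59 for *Fcgr4*. The 95% intervals of all 5 included 0 and ran from a ratio of FCs of 0.352 to 2.14 for *Fcgr4*, the widest, and from 0.942 to 1.39 for *Fcgr3*, the narrowest. Without aged sham replicate 2 it was 0.10 for *Fcgr1* and 0.10 for *Fcgr3*. Leaving out 1 sample moved the sign of this difference for *Fcgr2b* (from -0.35 to 0.10), *Fcgr4* (from -0.62 to 0.16) and *Fcer1g* (from -0.01 to 0.30).

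**Figure D2:**
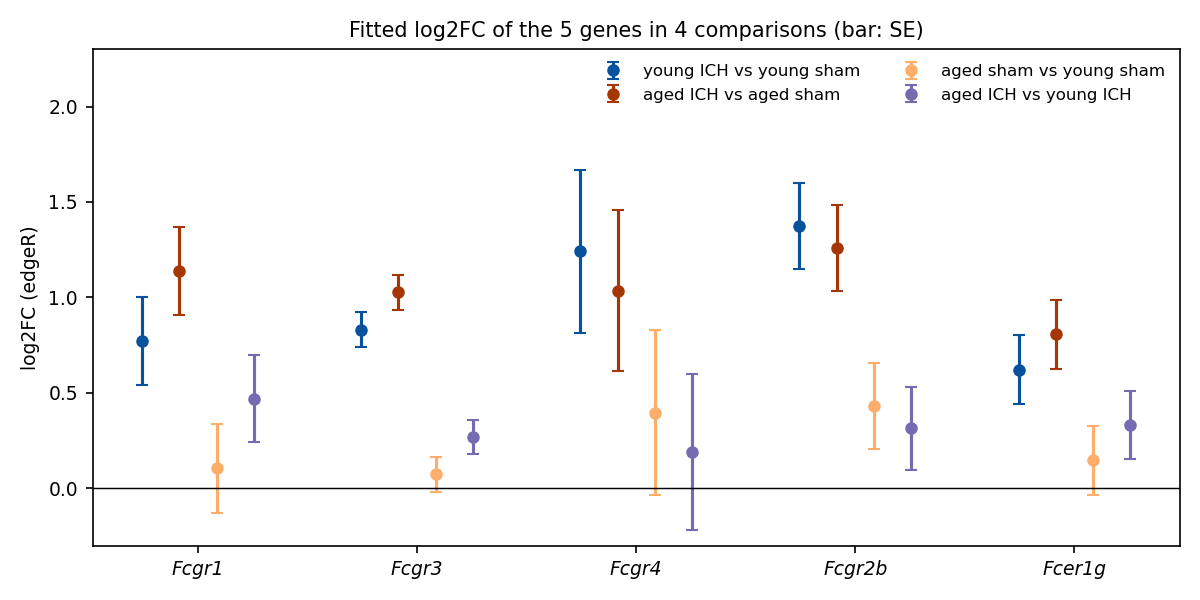
Fitted log2FC (y axis) of the 5 genes (x axis) in 4 comparisons, with the SE as bars; the aged ICH vs. aged sham values are a description, since they were used to pick the family. The 2 ICH responses lie between 0.62 and 1.38, and the 2 age differences between 0.07 and 0.47.

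Whether age alone went with other levels was compared in the sham groups, which share the aged sham samples with the comparison that picked the family. In aged sham vs. young sham, 0 of the 5 genes were DEGs in edgeR and 0 reached an unadjusted *P* < 0.05. DESeq2 and limma on FPKM also called 0, and 3.72% of all genes tested were DEGs. *Fcgr2b* had log2FC 0.43 ± 0.23 (SE, adjusted *P* = 0.468 in edgeR) and *Fcgr4* 0.40 ± 0.43 (adjusted *P* = 0.755 in edgeR). *Fcer1g*, *Fcgr1* and *Fcgr3* had 0.15, 0.10 and 0.07. The intervals of the FC, 0.957 to 1.90 for *Fcgr2b*, 0.683 to 2.53 for *Fcgr4* and 0.755 to 1.53 for *Fcgr1*, left room for a difference above 1.5-fold. Those of *Fcgr3* (0.915 to 1.21) and *Fcer1g* (0.842 to 1.46) did not. Without aged sham replicate 2, *Fcgr2b* (0.66, adjusted *P* = 0.252 in edgeR) and *Fcgr4* (0.81, adjusted *P* = 0.382 in edgeR) were DEGs. *Fcer1g* (0.34, adjusted *P* = 0.464 in edgeR) and *Fcgr1* (0.37, adjusted *P* = 0.484 in edgeR) then also had an unadjusted *P* < 0.05. Without aged sham replicate 1 the value of *Fcgr1* turned to -0.10.

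In aged ICH vs. young ICH, which shares the aged ICH samples with that comparison, all 5 values were above 0 and 0 genes were DEGs in edgeR. At an unadjusted *P* < 0.05 there was 1 in edgeR, *Fcgr3*, and 2 in DESeq2, *Fcgr3* and *Fcgr1*. DESeq2 and limma on FPKM called 0 DEGs, where 3.52% of all genes tested were DEGs in edgeR. *Fcgr3* had log2FC 0.27 ± 0.09 (SE, adjusted *P* = 0.385 in edgeR), a FC of 1.20 with an interval of 1.05 to 1.38. *Fcgr1* had 0.47 ± 0.23 (adjusted *P* = 0.542 in edgeR) and *Fcer1g* 0.33 ± 0.18 (adjusted *P* = 0.596 in edgeR), and for these 3 genes the groups did not overlap, as for 6.9% of all genes tested in this direction. *Fcgr2b* (0.31 ± 0.22) and *Fcgr4* (0.19 ± 0.41) overlapped. Without young ICH replicate 3, *Fcgr1* was a DEG with 0.60 (adjusted *P* = 0.349 in edgeR).

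Levels between genes were compared per length with the deposited FPKM. *Fcgr3* and *Fcer1g* stood highest, with means of 12.8 and 13.9 FPKM in young sham, 24.2 and 22.8 in young ICH, 13.8 and 15.9 in aged sham, and 29.6 and 29.1 in aged ICH. Their ranges overlapped in every group, and *Fcer1g* was the higher of the pair in 7 of 12 samples. *Fcgr1* followed with mean FPKM of 4.18, 7.60, 4.62 and 10.7 in the same group order, then *Fcgr2b* with 2.67, 7.38, 3.70 and 9.30, and *Fcgr4* with 1.97, 4.97, 2.67 and 5.75. *Fcgr1* was above *Fcgr2b* in 11 of 12 samples, though their ranges were separate only in young sham, and *Fcgr2b* was above *Fcgr4* in 12 of 12. With counts divided by the length of the single transcript with the longest coding sequence, *Fcgr2b* ranked above *Fcgr1* in all 4 groups, so their order depends on the length assigned to *Fcgr2b*.

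The RNA balance of activating to inhibitory receptors, given as a description, was the summed FPKM of *Fcgr1*, *Fcgr3* and *Fcgr4* over that of *Fcgr2b*. Like the shares below, the height of this ratio depends on the length assigned to *Fcgr2b*. It was 7.10 ± 0.223 (SD, n = 3) in young sham, with a range of 6.85 to 7.29, and 5.12 ± 0.787 in young ICH, with a range of 4.47 to 5.99. In aged sham it was 5.84 ± 0.64 (5.24 to 6.51) and in aged ICH 4.97 ± 0.247 (4.73 to 5.22). The young groups did not overlap, and the aged sham and aged ICH ranges met at their edge without overlapping. On the log2 scale the ratio changed by -0.48 with ICH in young and by -0.23 in aged mice. Aged sham replicate 2 had the highest aged sham ratio, 6.51, and young ICH replicate 3 the lowest young ICH ratio, 4.47. The changes of the ratio were not computed without these samples.

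The share of *Fcgr2b* in the summed FPKM of the 4 receptors was 12.4% in young sham, 16.5% in young ICH, 14.7% in aged sham and 16.8% in aged ICH. *Fcgr3* made up the largest share in every group, 59.3%, 55.2%, 57.1% and 53.6% in the same order. The ratio of *Fcer1g* to the summed activating receptors was 0.734 ± 0.0583 (SD, n = 3) in young sham against 0.62 ± 0.064 in young ICH, with overlapping ranges, and 0.747 ± 0.0221 in aged sham against 0.633 ± 0.0336 in aged ICH, without overlap.

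**Figure D3:**
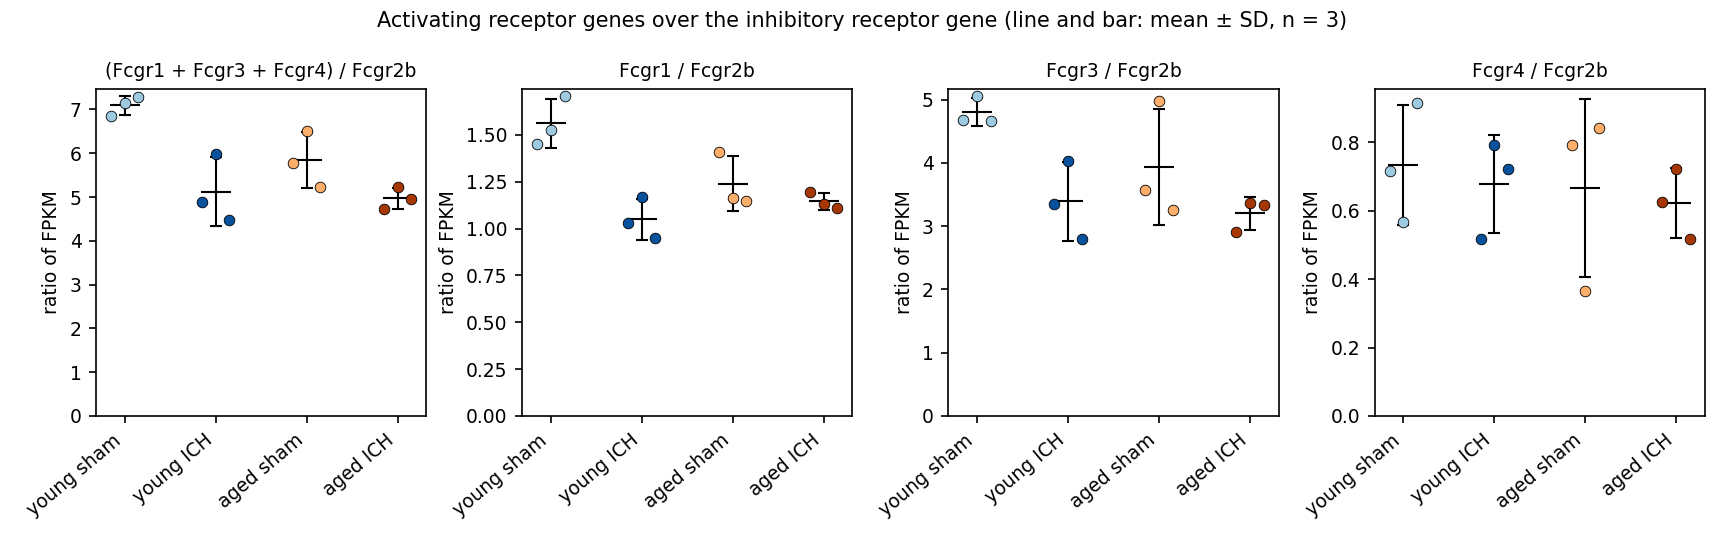
Ratios of FPKM of activating receptor genes to *Fcgr2b* (y axes, each from 0) in the 4 groups (x axes); points are samples, the line and bar the mean ± SD (n = 3). The summed ratio is above 6.8 in young sham and below 6 in young ICH, and the *Fcgr4* ratio overlaps between all groups.

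Because reads from near-identical stretches could be assigned to either gene, the coding sequences of the 4 receptors were compared. *Fcgr2b* and *Fcgr3* were 79.0% identical over 792 aligned bases, and the other pairs were 52.2% to 60.2% identical with at most 14 identical bases in a row. The first pair shared 1 stretch of 129 bases, on the minus strand at chr1:170966674-170968081 and chr1:171054167-171057792 of GRCm38, each spanning an intron. It is shown in lower case because reads from it alone cannot be told apart.
Fcgr2b and Fcgr3: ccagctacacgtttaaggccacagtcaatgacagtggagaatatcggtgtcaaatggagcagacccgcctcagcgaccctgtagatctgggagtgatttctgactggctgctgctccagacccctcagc
Of all 100-base windows of the coding sequences, 4.78% of those in *Fcgr2b* and 6.27% of those in *Fcgr3* occurred in the other gene. The paper describes paired reads that are longer than these windows, so the percentages are not shares of reads that cannot be told apart. The sources used here do not say how the counting treated such reads. The antisense gene *Gm38204* shares 155 exon bases with *Fcgr2b* and had 0 to 2 reads in every sample.

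Of the 5 genes, 4 lie within 275749 bases of chromosome 1, with *Fcgr2b*, *Fcgr4* and *Fcgr3* inside 106319 bases and 7 protein-coding genes between *Fcgr3* and *Fcer1g*, whereas *Fcgr1* lies on chromosome 3. Promoters, windows of 300 bases around the start in RefSeq on GRCm38.p6, were found for all 5 genes, and those of the 3 activating receptors are shown because they hold every match of the motifs searched. The motifs, searched on both strands, were the core site GAGGAA of PU.1 (TTCCTC on the other strand), a myeloid transcription factor, the interferon-gamma activated site TTCNNNGAA, and the core of the interferon-stimulated response element, GAAA and GAAA with 2 bases between them. Capitals mark the matches, and no matches overlap. For *Fcgr3* the table lists 2 windows a few bases apart, of which the first is used, and both lie inside the span that GENCODE gives the gene.
Fcgr1, chr3:96293920-96294219, minus strand: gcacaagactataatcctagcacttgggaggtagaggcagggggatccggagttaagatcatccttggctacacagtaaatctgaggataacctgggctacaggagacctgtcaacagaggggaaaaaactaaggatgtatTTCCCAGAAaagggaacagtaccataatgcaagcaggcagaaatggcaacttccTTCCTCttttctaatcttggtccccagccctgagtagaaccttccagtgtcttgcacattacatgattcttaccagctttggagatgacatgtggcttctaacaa
Fcgr3, chr1:171059354-171059653, minus strand: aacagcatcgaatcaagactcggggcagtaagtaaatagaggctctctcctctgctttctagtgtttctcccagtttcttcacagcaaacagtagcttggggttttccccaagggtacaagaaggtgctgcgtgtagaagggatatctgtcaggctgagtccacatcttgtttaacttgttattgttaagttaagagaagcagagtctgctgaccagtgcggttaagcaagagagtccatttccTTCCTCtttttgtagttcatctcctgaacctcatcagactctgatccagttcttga
Fcgr4, chr1:171018676-171018975, plus strand: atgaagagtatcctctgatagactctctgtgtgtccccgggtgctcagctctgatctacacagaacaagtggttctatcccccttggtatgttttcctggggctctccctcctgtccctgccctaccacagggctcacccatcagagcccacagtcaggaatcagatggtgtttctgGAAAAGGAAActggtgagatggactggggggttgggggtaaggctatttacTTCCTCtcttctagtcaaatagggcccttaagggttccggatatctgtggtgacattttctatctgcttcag
The PU.1 core lay at positions -55, -6 and -22 from the start in *Fcgr1*, *Fcgr3* and *Fcgr4*, and 28.31% of 27025 promoters hold it. The match TTCCCAGAA lay at -109 in *Fcgr1*, a motif found in 8.466% of promoters, and GAAAAGGAAA lay at -73 in *Fcgr4*, a motif found in 3.489%. *Fcgr1* and *Fcgr3* share the 14 bases ttccttcctctttt around the PU.1 core. The windows of *Fcgr2b* and *Fcer1g* held no match of these motifs. The *Fcgr2b* window, like those of *Fcgr3*, lies inside the span that GENCODE gives the gene. The part of these motifs in the levels of the 5 genes was not tested.

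For each gene, the 3 others with the most similar pattern were found by the root-mean-square difference of centred log2 CPM over the 12 samples among 21490 genes. These were *Parp9* (0.109), *Tspo* (0.116) and *Irf9* (0.122) for *Fcgr1*, and *Cd63* (0.0814), *Pdlim4* (0.0957) and *Msn* (0.113) for *Fcgr2b*. For *Fcgr3* they were *Mcl1* (0.102), *Slc39a14* (0.107) and *Rras* (0.107), and for *Fcer1g* *Ctsz* (0.101), *Lyn* (0.102) and *Myo1f* (0.11). *Fcgr4*, with the fewest reads, had the least close matches, *Tlr2* (0.168), *3930402G23Rik* (0.18) and *Pilra* (0.194). No gene was among the closest 3 of more than 1 member. *Cd63*, a lysosomal and exosomal tetraspanin, followed *Fcgr2b* with 51.2 ± 4.44 CPM (SD, n = 3) in young sham, 123 ± 32.5 in young ICH, 65.1 ± 15.3 in aged sham and 160 ± 21.8 in aged ICH.

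Around the receptors, 75 of 89 genes of the pathway present in the table could be tested. In young ICH vs. young sham, 33 of the 75 were upregulated DEGs, beside the 8.66% of all genes tested, and the median log2FC of the 75 was 0.57 against 0.02 over all genes tested. DEGs that fell numbered 0 in edgeR and in DESeq2, and 3 (*Cbl*, *Il4* and *Sirpa*) were lower at an unadjusted *P* < 0.05. In aged ICH vs. aged sham, 37 were upregulated DEGs, beside 7.24% of all genes tested, with a median of 0.65 against 0.00. Here again 0 fell in edgeR and DESeq2, and 3 (*Il4*, *Ptpn11* and *Sirpa*) were lower at an unadjusted *P* < 0.05.

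Among 6 other receptors of immunoglobulins, 0 were DEGs in the young response in edgeR, and 1 passed an unadjusted *P* < 0.05. *Fcgrt*, the neonatal Fc receptor that recycles immunoglobulin G, had log2FC 0.01 ± 0.13 (SE) in young and -0.03 ± 0.13 in aged mice. In the aged response 3 were upregulated DEGs, *Trim21*, a cytosolic Fc receptor (1.06 ± 0.24), *Fcrlb* (0.81 ± 0.21) and *Fcrls*, a microglial Fc receptor-like gene (0.65 ± 0.16). *Trim21* had 4.21 ± 0.864 CPM (SD, n = 3) in young sham, 5.76 ± 0.85 in young ICH, 5.01 ± 1.43 in aged sham and 10.4 ± 2.32 in aged ICH. It was higher in aged ICH than in young ICH by 0.86 ± 0.24 (SE, adjusted *P* = 0.266 in edgeR).

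Of 7 tested ligand genes, antibody chains and pentraxins, 2 rose in young ICH and 5 in aged ICH. *Ptx3*, a soluble pentraxin that can bind Fc gamma receptors, rose in both, by 2.77 ± 0.76 (SE, adjusted *P* = 0.0274 in edgeR) and 2.36 ± 0.74 (adjusted *P* = 0.0558). *Igkc*, the kappa light chain, rose by 2.31 ± 0.84 and 2.17 ± 0.76, but its levels were low and 1 library stood out in each ICH group, with a range of 0.63 to 4.96 CPM in young ICH and 1.73 to 8.61 CPM in aged ICH, against 0.297 to 0.663 and 0.894 to 1.08 CPM in the sham groups. *Igha* (3.00 ± 1.02), *Ighg2b* (2.69 ± 0.97) and *Jchain* (1.42 ± 0.48) were the other DEGs in the aged response, and their adjusted *P* values were 0.0757, 0.0906 and 0.0762 in edgeR.

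Of 8 tested genes for other receptors and adaptors that signal through an ITAM or a related motif, 6 rose in young ICH and 4 in aged ICH. *Tyrobp*, the adaptor DAP12 and the counterpart of *Fcer1g*, rose by 0.85 ± 0.13 (SE) and 0.82 ± 0.13, from 8.73 ± 1.31 CPM (SD, n = 3) in young sham to 15.7 ± 1.08 in young ICH and from 9.98 ± 0.644 in aged sham to 17.6 ± 2.47 in aged ICH. In the young response the C-type lectin receptors had log2FC 3.78 ± 1.0 (SE, *Clec4e*), 3.65 ± 0.73 (*Clec4d*), 2.48 ± 0.43 (*Clec4n*) and 2.0 ± 0.48 (*Clec7a*), and *Pira2*, an activating receptor that pairs with the common gamma chain, had 3.46 ± 1.02. The 4 lectin receptors were also DEGs in aged sham vs. young sham, at 3.75 ± 1.0, 2.22 ± 0.77, 1.04 ± 0.45 and 2.11 ± 0.48 in the same order, with adjusted *P* of 0.164 or higher in edgeR. *Clec7a*, the beta-glucan receptor dectin-1, had 0.861 ± 0.23 CPM (SD, n = 3) in young sham, 3.43 ± 2.08 in young ICH, 3.69 ± 1.49 in aged sham and 10.1 ± 4.05 in aged ICH.

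Among the kinases that act next to the ITAM, *Fgr* (2.14 ± 0.41, SE), *Syk* (0.78 ± 0.15) and *Lyn* (0.76 ± 0.16) rose in young ICH, and in aged ICH they rose by 1.44 ± 0.38, 0.87 ± 0.15 and 0.79 ± 0.16. *Fyn*, which neurons and T cells also use, had -0.02 ± 0.05 and -0.05 ± 0.05. *Syk* had 6.90 to 7.49 CPM in young sham, 11.4 to 13.1 in young ICH, 5.56 to 9.28 in aged sham and 13.6 to 14.8 in aged ICH, with no overlap between ICH and sham.

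Of 23 genes downstream of Syk, 11 rose in young ICH and 10 in aged ICH. *Arpc1b*, a subunit of the actin-nucleating Arp2/3 complex, rose by 1.14 ± 0.19 (SE) and 1.21 ± 0.19, *Lcp2*, the adaptor SLP-76, by 0.88 ± 0.18 and 0.93 ± 0.18, *Rac2* by 0.88 ± 0.21 and 0.78 ± 0.21, and *Was* by 0.83 ± 0.16 and 0.80 ± 0.17. *Vav1* and *Btk* rose in both as well. *Plcg1*, the broadly expressed phospholipase, had -0.07 ± 0.05 at each age, while its hematopoietic relative *Plcg2* rose by 0.59 ± 0.13 in young ICH and had 0.48 ± 0.13 in aged ICH, under the FC criterion.

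Of 15 inhibitors, 6 rose in young ICH and 4 in aged ICH. The ITIM receptors *Lilrb4a* (2.74 ± 0.52, SE, and 2.06 ± 0.48), *Pirb* (1.76 ± 0.31 and 1.40 ± 0.30) and *Cd300a* (1.11 ± 0.27 and 0.97 ± 0.27) rose at both ages. *Inpp5d*, which encodes the phosphatase recruited by *Fcgr2b*, had 0.49 ± 0.10 (adjusted *P* = 0.00769) and 0.41 ± 0.10 (adjusted *P* = 0.0251 in edgeR), under the FC criterion at both ages. *Ptpn6*, the phosphatase SHP-1, rose by 0.72 ± 0.12 in young ICH and had 0.56 ± 0.12 in aged ICH. *Sirpa*, an ITIM receptor also present on neurons, had -0.40 ± 0.09 (adjusted *P* = 0.00981 in edgeR) in young ICH.

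Of 11 genes known to set Fc gamma receptor transcription, 4 rose in young ICH and 7 in aged ICH. *C5ar1*, the receptor of complement C5a (2.01 ± 0.36, SE, and 1.67 ± 0.35), *Il4ra* (1.53 ± 0.23 and 1.55 ± 0.23) and *Spi1*, which encodes PU.1 (1.06 ± 0.24 and 1.01 ± 0.24), rose at both ages. *Irf1*, an interferon-induced transcription factor, had 0.37 ± 0.18 in young ICH and rose by 0.96 ± 0.18 in aged ICH. In aged ICH vs. young ICH it was a DEG, at 0.84 ± 0.18, with an adjusted *P* of 0.161 in edgeR. Reads of *Ifng* and *Il10* were too few for a test.

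In aged sham vs. young sham 7 of the 75 genes were DEGs, all higher, where 2.82% of all genes tested were, and in aged ICH vs. young ICH 6 were, all higher, where 2.21% were. An adjusted *P* < 0.05 was reached by 0 of them in either comparison in edgeR, which 0.102% and 0.0558% of all genes tested reached, and 10 and 7 were higher at an unadjusted *P* < 0.05. At that threshold 3 were lower with age in the sham mice (*Fcrls*, *Fyn* and *Vav2*) and 2 in the ICH mice (*Dok3* and *Fyn*).

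**Figure D4:**
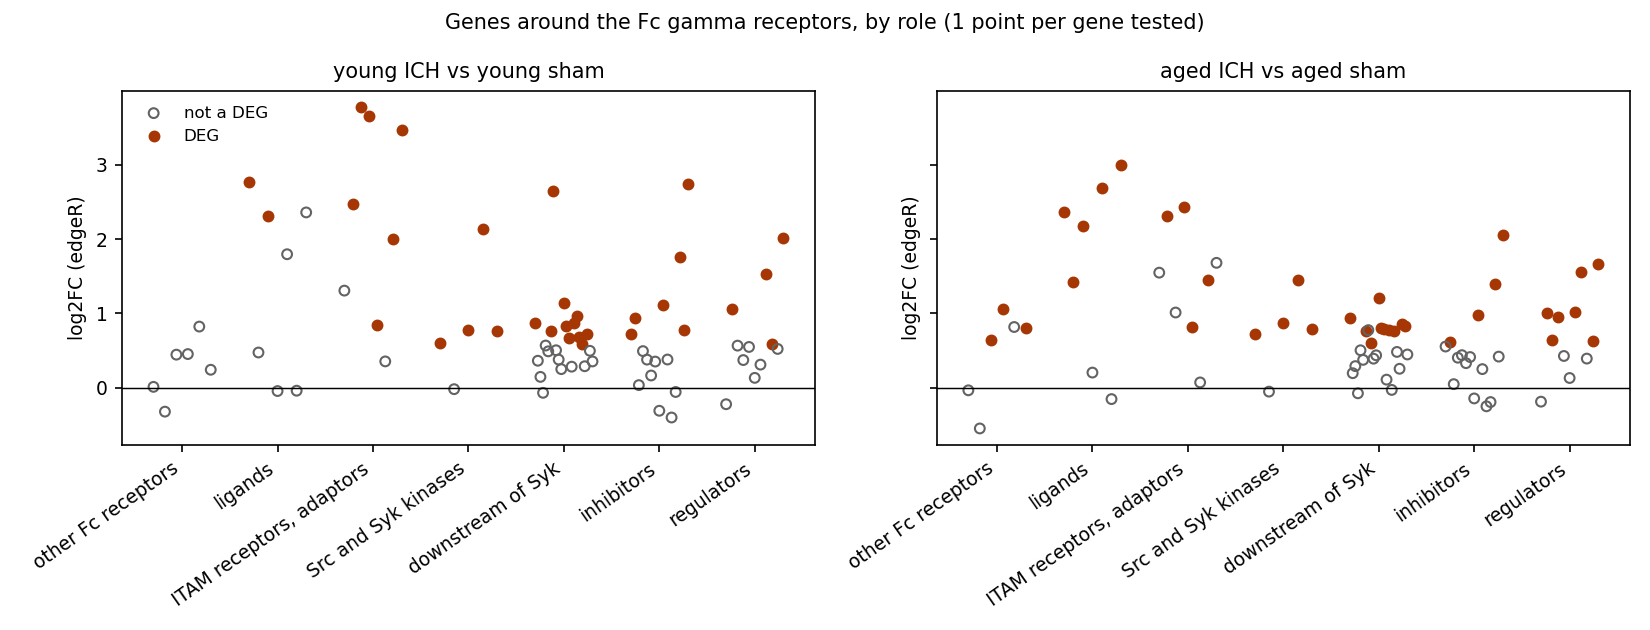
Fitted log2FC (y axis) of the 75 tested genes around the Fc gamma receptors, 1 point each, grouped by role (x axis), for young ICH vs. young sham (left) and aged ICH vs. aged sham (right); filled points are DEGs. Every filled point lies above 0, 33 on the left and 37 on the right, and *Clec4e* and *Clec4d* on the left are the highest, at 3.78 and 3.65.

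Markers of cells that carry these receptors, and of blood, moved with the groups too. Summed CPM of 9 monocyte markers was 137 to 154 in young sham, 265 to 316 in young ICH, 111 to 191 in aged sham and 259 to 327 in aged ICH, and 6 of the 9 were upregulated DEGs at each age. *Ccr2*, the chemokine receptor that defines entering monocytes, had 3.96 ± 1.97 CPM (SD, n = 3) in young sham, 15.1 ± 4.53 in young ICH, 4.39 ± 3.21 in aged sham and 15.6 ± 3.31 in aged ICH. Of 9 tested neutrophil markers 7 rose at each age, and the sum of all 11 on the list was 11.3 to 13.9, 22.1 to 40.1, 16.3 to 27.7 and 40.7 to 57.1 CPM in the same group order. The neutrophil marker *Ly6g* was at or near 0, with at most 0.126 CPM in any sample.

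Of 8 border macrophage markers 5 rose in young ICH, and in aged ICH 4 rose and 1 was a DEG that fell. The sum of the 8 was 10.1 to 22.0, 36.4 to 44.2, 14.9 to 21.7 and 34.3 to 41.4 CPM. Of 10 microglia markers *Sparc* alone rose in young ICH, while *P2ry12* and *Siglech* fell at both ages, and the sum of the 10 ranged over 478 to 651, 534 to 776, 584 to 619 and 594 to 725 CPM. *P2ry12*, a purinergic receptor of homeostatic microglia, had 26.8 ± 4.06 CPM (SD, n = 3) in young sham, 16.5 ± 1.43 in young ICH, 34.4 ± 5.68 in aged sham and 19.1 ± 1.69 in aged ICH. B cell markers summed to 0.718 to 1.02 CPM in young sham and 1.56 to 1.73 CPM in young ICH. Their sum was 1.28 to 1.62 CPM in aged sham and 2.01 to 2.67 CPM in aged ICH. Of 2 tested B cell markers 1 rose in young ICH and 0 rose in aged ICH. The 1 was *Cd22*, with log2FC 2.40 ± 0.35 (SE, adjusted *P* = 0.00191 in edgeR). The list held 7 B cell markers, of which 3 had 0 reads in young sham replicate 3 and only 2 could be tested. Whether the reads of these markers came from B cells was not tested. In aged sham vs. young sham 1 of the 2 was a DEG and higher. It also passed the adjusted threshold, as 0.102% of all genes tested did. Of 10 T and NK cell markers 5 could be tested, of which 4 rose in young ICH. In the aged response *Cd4* fell and the other 4 were not DEGs, and in aged ICH vs. young ICH *Cd8a* and *Nkg7* were lower. The sum of the 10 was 19.6 to 36.0, 7.72 to 23.7, 19.2 to 28.8 and 4.49 to 21.1 CPM in the same group order. The lowest values of the ICH groups were 7.72 in young ICH replicate 2 and 4.49 in aged ICH replicate 1. Both samples also had the lowest summed striatal neuron markers of their groups, 513 and 325 CPM. Whether the reads of the 10 markers came from T and NK cells was not tested. Of 5 mast cell markers only *Kit*, which some neurons also express, could be tested. Of 5 red cell markers 4 rose in young ICH, 1 rose in aged ICH and 3 were higher in aged sham than in young sham, and their sum was 5.20 to 22.4, 29.0 to 121, 27.8 to 39.5 and 24.3 to 82.0 CPM. In aged sham vs. young sham, 7 of 9 neutrophil markers were DEGs and higher (adjusted *P* of 0.111 or above in edgeR), while 0 of the 5 Fc receptor genes were. Aged sham replicate 2, lowest in its group for the 5 genes, also had the lowest monocyte sum, 111 CPM, and a microglia sum of 615 CPM. The part of these cell types in the levels of the Fc receptor genes was not tested.

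**Figure D5:**
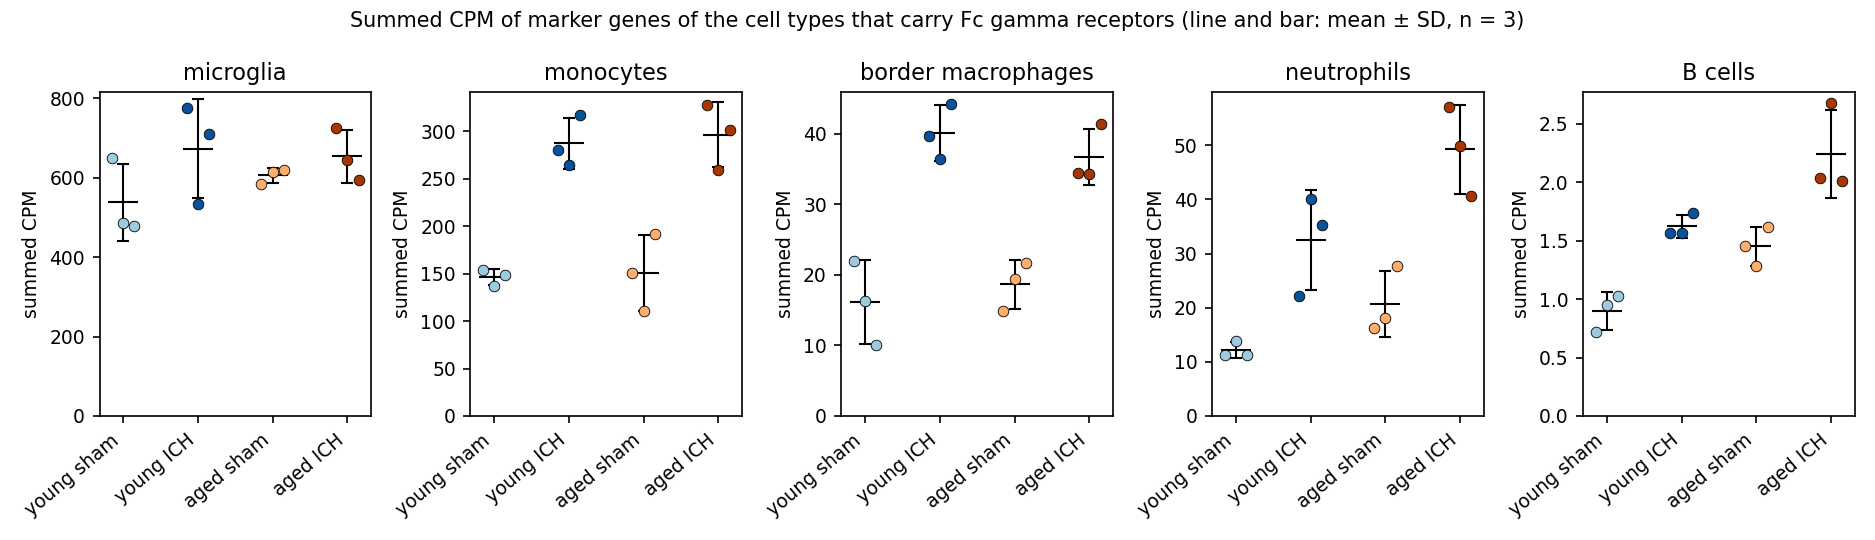
Summed CPM (y axes, each from 0) of marker genes of 5 cell types that can carry Fc gamma receptors, in the 4 groups (x axes); points are samples, the line and bar the mean ± SD (n = 3). Monocyte, border macrophage, neutrophil and B cell sums separate ICH from sham within each age, and microglia sums overlap. The B cell sums are low, at most 2.67 CPM.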

How the data were processed

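RNA was sequenced from 12 samples. The authors used Hisat2 on GRCm38.p6 for the paired reads and FeatureCounts for the genes, and deposited raw counts, which are not normalized, and FPKM, which the authors scaled by gene length and mapped fragments. Strand setting and the treatment of reads with several alignments are not given in the sources used here. Groups came from the labels, and 0 columns were left over. Each replicate was a pool of several mice, so *P* values measure the spread between pools.

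Counts were tested with edgeR 4.0.16 (quasi-likelihood test, R 4.3.3) after TMM normalization, with filterByExpr (minimum count 10) and all 12 samples in 1 model of 4 groups. A DEG had FC > 1.5 or FC < 0.67 and unadjusted *P* < 0.05, and adjusted *P* is Benjamini-Hochberg over the 21495 genes tested. Alternatives used DESeq2 1.42.0, limma 3.58.1 on log2(FPKM + 1), other size factors, no filter, 2 groups only, a replicate block and each sample left out. The scripts were checked on simulated counts. CPM and log2 CPM (prior count 2) use TMM library sizes. Total counts of 28410896 to 37785160 per sample gave 33 or more reads for each of the 5 genes, and intervals cover the fitted spread between samples. Gene positions came from GENCODE vM21. Named pathway and marker genes are the DEGs of a list and others with small *P*. A few list genes are not reported here. Members, lists and tests were chosen with earlier results of these data known.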

Additional observations from a re-analysis of the deposited data

How the results depend on the processing

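The number of the 5 Fc receptor genes called in young ICH vs. young sham was 5 under each planned setting other than leaving out a sample and the adjusted threshold (4), and it ranged from 3 to 5 when each sample was left out. In aged sham vs. young sham that range was 0 to 2, with 2 without aged sham replicate 2, and in aged ICH vs. young ICH 0 to 1, with 1 without young ICH replicate 3. *Fcgr1* in aged sham vs. young sham reversed to -0.10 without aged sham replicate 1, in a range of -0.10 to 0.37. Of the pathway genes, limma on log2(FPKM + 1) called 18 in young ICH vs. young sham and 1 in aged sham vs. young sham, against 33 and 7 in edgeR. An adjusted *P* < 0.05 left 0 in either age comparison, and no expression filter gave 10 in aged ICH vs. young ICH. Leaving out each sample gave 28 to 42, 29 to 40, 2 to 10 and 5 to 9 pathway genes in the young response, the aged response, the sham groups and the ICH groups, with 2 without aged sham replicate 3 and 4 without young sham replicate 2 in the third. The adjusted threshold and the samples left out change the calls by construction, and the cause of the others was not tested.

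Ranked by FPKM, *Fcgr1* was 3 and *Fcgr2b* 4 in all groups, and with the length of the transcript with the longest coding sequence, chosen after seeing the data, *Fcgr1* was 4 and *Fcgr2b* 3. Of the other values compared, 599 stayed within 1.5 times (counts), kept direction and call (tested genes), kept rank, or moved by less than the spread between replicates (values with no test).

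Same-numbered samples deviated together in 5 of 18 pairs (r from -0.454 to 0.235, over 0.1 in those 5), against 13 of 36 differently numbered pairs. This check gave no sign that the numbers pair the samples, but with 3 samples per group it cannot exclude pairing. With the replicate number as a block, 5, 0 and 0 of the 5 genes were called in the young response, between the sham groups and between the ICH groups, and 32, 37, 8 and 9 pathway genes in the 4 comparisons, with no call of the 5 genes changed. In aged ICH vs. young ICH 4 of the 5 genes had an unadjusted *P* < 0.05 with the block, and 3 had it without the expression filter or with only 2 groups, against 1 in the fit reported. In aged sham vs. young sham the unadjusted edgeR *P* of *Fcgr2b* was 0.0333 with the block and 0.0325 without the expression filter, against 0.0816 in the fit reported. The adjusted *P* of *Fcgr2b* was then 0.402 and 0.599 in edgeR, and its log2FC stayed under the FC criterion.

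Dividing CPM by a length from the table was not run, since the table gives none, ratios of summed CPM were not run, since CPM of genes of unequal length do not add, and a fit of 2 groups cannot give the difference of responses. Depth limited *Fcgr4*, with 33 reads in 1 sample, most.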
